A study of Acipenser baerii with 14 samples.

Results

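Collagens are the structural proteins of the extracellular matrix, and the collagen genes of the sturgeon transcriptome were described here over the 7 groups of lateral line and epithelial tissue. A collagen contig was any gene of the de novo assembly whose annotated name had the form of a collagen chain, that is COL, a type number, the letter A and a chain number. Of the 23448 genes in the count table, 138 matched. One of them, *col4a3bp*, is named after a type IV collagen chain but encodes a ceramide transfer protein, so it was left out of every collagen count. The remaining 137 contigs carried 40 gene names of 26 collagen types. A filter on low counts kept 131 of the 137, among 21978 genes kept in all. The 6 contigs that did not pass were 1 each of *col9a3*, *col4a3* and *col6a3* and 3 of *col6a6*.

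A collagen molecule is made of chains wound around each other in a helix, and the types differ in what the molecules build. Fibrillar collagens assemble into the banded fibrils of skin, tendon and bone, cartilage has fibrils of its own, and type IV collagen forms the sheet-like network of basement membranes under epithelia. Fibril-associated collagens with interrupted helices (FACITs) sit on the surface of fibrils, type VI forms beaded microfibrils, and a few collagens span the plasma membrane, among them type XVII, which anchors basal keratinocytes to the basement membrane. The contigs were sorted by type into 22 fibrillar contigs (types I, III, V and XXIV), 24 cartilage contigs (types II, IX, X, XI and XXVII), 17 basement membrane contigs (types IV, XV and XVIII), 29 FACIT contigs (types XII, XIV, XVI, XIX, XXI and XXII), 38 contigs of microfibrils and networks (types VI, VIII, XXVI and XXVIII) and 7 transmembrane contigs (types XIII, XVII, XXIII and XXV).

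The tissue came from larvae of the Siberian sturgeon, *Acipenser baerii*, at 10 days post hatching (dph). Ampullary organs (AOs), the electroreceptive organs, and neuromasts (NMs), the mechanosensory organs, were taken from the ventral side of the head in untreated larvae and at 12 and 24 hours post treatment (hpt), where the treatment was 200 µM neomycin for 1 h. Neomycin is an aminoglycoside antibiotic that kills hair cells, after which the organs regenerate. General epithelium (EP) was taken from the ventral trunk of untreated larvae only, so the EP samples differ from the organs in body region as well as in tissue, which cannot be told apart. The 7 groups are therefore untreated AO, AO at 12 hpt, AO at 24 hpt, untreated NM, NM at 12 hpt, NM at 24 hpt and untreated EP, with 2 libraries in each. Per the study's methods, untreated AO, NM and EP came from the same set of larvae, and AO and NM at each time from a set of their own. Differences between these sets therefore cannot be told apart from treatment and time. Tissue of many larvae was pooled for each group and the pool was divided before RNA extraction. The replicates are thus technical, and every p-value here measures only the spread between the 2 libraries of a pool. In bulk tissue, fewer cells of a type and less RNA per cell cannot be told apart.

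Levels are given as CPM, the counts of a contig brought to a common library size, after scaling by the trimmed mean of M values (TMM), and values on either side of a slash are those of replicates 1 and 2. A contig was called higher or lower where the log2 fold change exceeded 1 in size and the false discovery rate (FDR), the Benjamini-Hochberg adjusted p of edgeR's quasi-likelihood test over all 21978 genes, was below 0.01. "Rose" and "fell" are used of calls only. Contig lengths were not used here, so tests and fold changes are between groups within a contig. Sums over contigs, shares of a sum and the words "leading" and "highest CPM" are of counts, which also depend on the length of a contig.

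The libraries held 7121038 to 10067958 counts. The scaling factors ran from 0.833 in EP replicate 1 to 1.19 in NM at 24 hpt replicate 2, and untreated NM stood at 0.895 and 0.907. Markers of other tissues moved with the groups. The summed level of 83 contigs of muscle genes was 49885 CPM in EP, 679 in untreated AO and 369 in untreated NM, 9338 and 15780 at 12 hpt in AO and NM, and 20301 and 765 at 24 hpt. No muscle gene name in that list was at 0 in any group. Lens genes (18 contigs) summed to 3555 CPM in NM at 24 hpt and to between 13 and 273 in the other groups, and keratinocyte genes (44 contigs) summed to between 13714 CPM in NM at 24 hpt and 26865 in untreated NM. Hair cell genes (37 contigs, 32 tested) summed to 710 CPM in EP, 672 in untreated AO and 462 in untreated NM. Of the tested contigs, 16 were called higher and 2 lower in untreated AO than in EP, where 7.46% and 6.81% of all genes were. In untreated NM 13 were called higher and 2 lower than in EP, where 4.06% and 9.19% of all genes were. The part of these tissues in the collagen results was not tested, and their values are repeated below beside the contigs they move with.

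Names were those of the best-matching protein, and many were carried by several contigs, from 14 for *col6a3* and 9 for *col11a1* down to 1. The 137 contigs lay in 101 Trinity components, of which 10 held contigs of 2 or more collagen names, for example *col1a1*, *col1a2* and *col2a1* in the components DN98278 and DN119371, and *col11a1* with *col11a2* in DN114608. RSEM divides reads between similar contigs, so values of contigs that share a name or a component are uncertain as separate genes, and they are not independent of each other.

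Collagen contigs took 4.80% and 4.86% of the counts in EP, 4.97% and 4.71% in untreated AO, and 3.83% and 3.88% in untreated NM. These shares are of counts before scaling. With scaling, the mean sum of all collagen contigs was 57301 CPM in EP and 45414 in untreated AO, so the order of these 2 groups depends on the scaling. After neomycin the share was lower in both organs, at 2.71% in each AO library at 12 hpt and 2.97% and 2.92% at 24 hpt. In NM it was 2.71% and 2.72% at 12 hpt and 1.94% and 1.93% at 24 hpt, the lowest of all groups. The summed level of the fibrillar contigs was 40341/39528 CPM in EP, 33343/31288 in untreated AO and 30172/29907 in untreated NM. It was 17330/16732 at 12 hpt and 19573/18307 at 24 hpt in AO. In NM it was 19501/18826 at 12 hpt and 11312/10825 at 24 hpt. No library of a treated organ reached the level of an untreated library of the same organ. The sums lean on few contigs, since one *col2a1* contig gave 60.6% of the summed CPM of the cartilage class and one *col17a1* contig 44.4% of that of the transmembrane class.

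**Figure D1:**
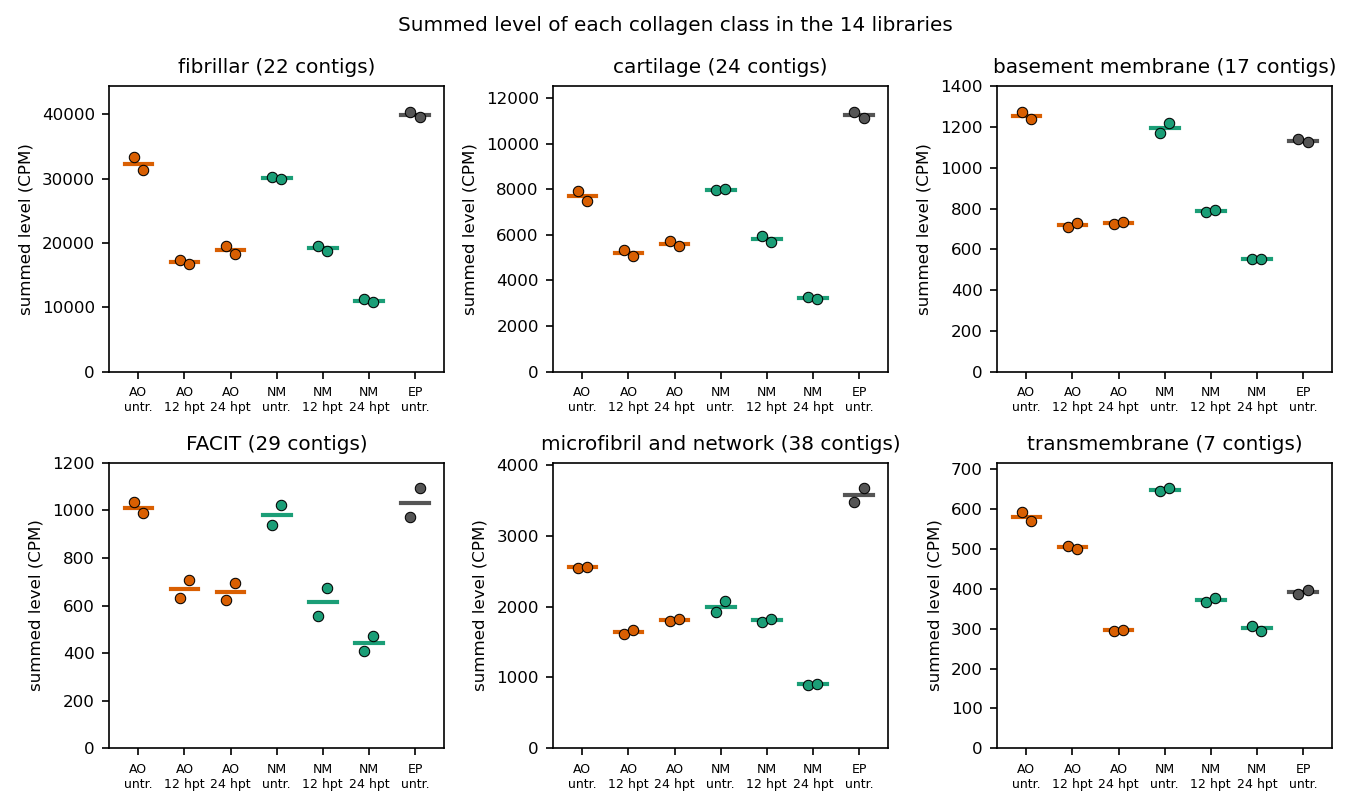
Summed CPM of the collagen contigs of each class (y axis, from 0) in the 7 groups (x axis), 1 panel a class. Points are libraries and the line is the mean of the 2; fibrillar contigs stood at a mean of 39935 CPM in EP and 11068 in NM at 24 hpt.

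The cartilage class had a mean sum of 11239 CPM in EP, 7698 in untreated AO and 7971 in untreated NM, and of 3238 in NM at 24 hpt. The basement membrane class was, after scaling, about as high in the untreated organs as in EP, with means of 1256 CPM in AO, 1195 in NM and 1132 in EP. It had 731 in AO and 551 in NM at 24 hpt. The transmembrane class had a mean sum of 393 CPM in EP, 581 in untreated AO and 648 in untreated NM, so that both untreated organs lay above EP. Microfibril and network contigs ran from 3571 CPM in EP to 900 in NM at 24 hpt. FACIT contigs ran from 1032 CPM in EP to 441 in NM at 24 hpt.

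After neomycin, a larger share of collagen contigs than of all genes was called lower in both organs and at both times. In AO at 12 hpt, 19 of 131 contigs were called lower and 6 higher than in untreated AO, where 2.21% and 9.84% of all genes were called in those directions. In NM at 12 hpt, 14 were called lower and 13 higher than in untreated NM, against 1.32% and 11.1% of all genes, and the quasi-likelihood fit of only these 2 groups called 8 lower and 7 higher. In AO at 24 hpt, 25 were called lower and 14 higher, against 3.47% and 12.6% of all genes. In NM at 24 hpt, 72 were called lower and 7 higher, against 5.01% and 16.1% of all genes. The median log2 fold change of the 131 contigs was -0.58 in AO and -0.41 in NM at 12 hpt, where that of all genes was 0.04 and 0.06. At 24 hpt it was -0.51 in AO and -1.15 in NM, where that of all genes was -0.01 and -0.03. The 12 and 24 hpt comparisons of an organ share its untreated libraries. Without scaling factors, which moved the median of all genes by more than 0.1 to 0.35 in NM at 24 hpt, the collagen median there was -0.76, and 28 contigs were called lower and 8 higher. Of the contigs described below, the calls in NM at 24 hpt were lost in this way, with the direction kept, for *col1a1* TRINITY_DN119371_c2_g5, *col3a1* TRINITY_DN119160_c7_g3, *col5a1* TRINITY_DN119381_c0_g2, *col5a2*, *col2a1* TRINITY_DN98278_c5_g2 and *col11a1* TRINITY_DN114608_c1_g4. They were also lost for both *col4a1* contigs described, *col4a2*, *col4a6* TRINITY_DN119761_c5_g1, *col18a1* TRINITY_DN118479_c2_g1, *col12a1*, both *col14a1* contigs described and *col16a1*, and for both *col6a1* contigs described, *col6a2* TRINITY_DN118599_c1_g1, *col6a3* TRINITY_DN114879_c0_g3, *col28a1* TRINITY_DN119918_c7_g1 and the *col17a1* contigs TRINITY_DN112409_c1_g2 and TRINITY_DN118987_c9_g1.

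**Figure D2:**
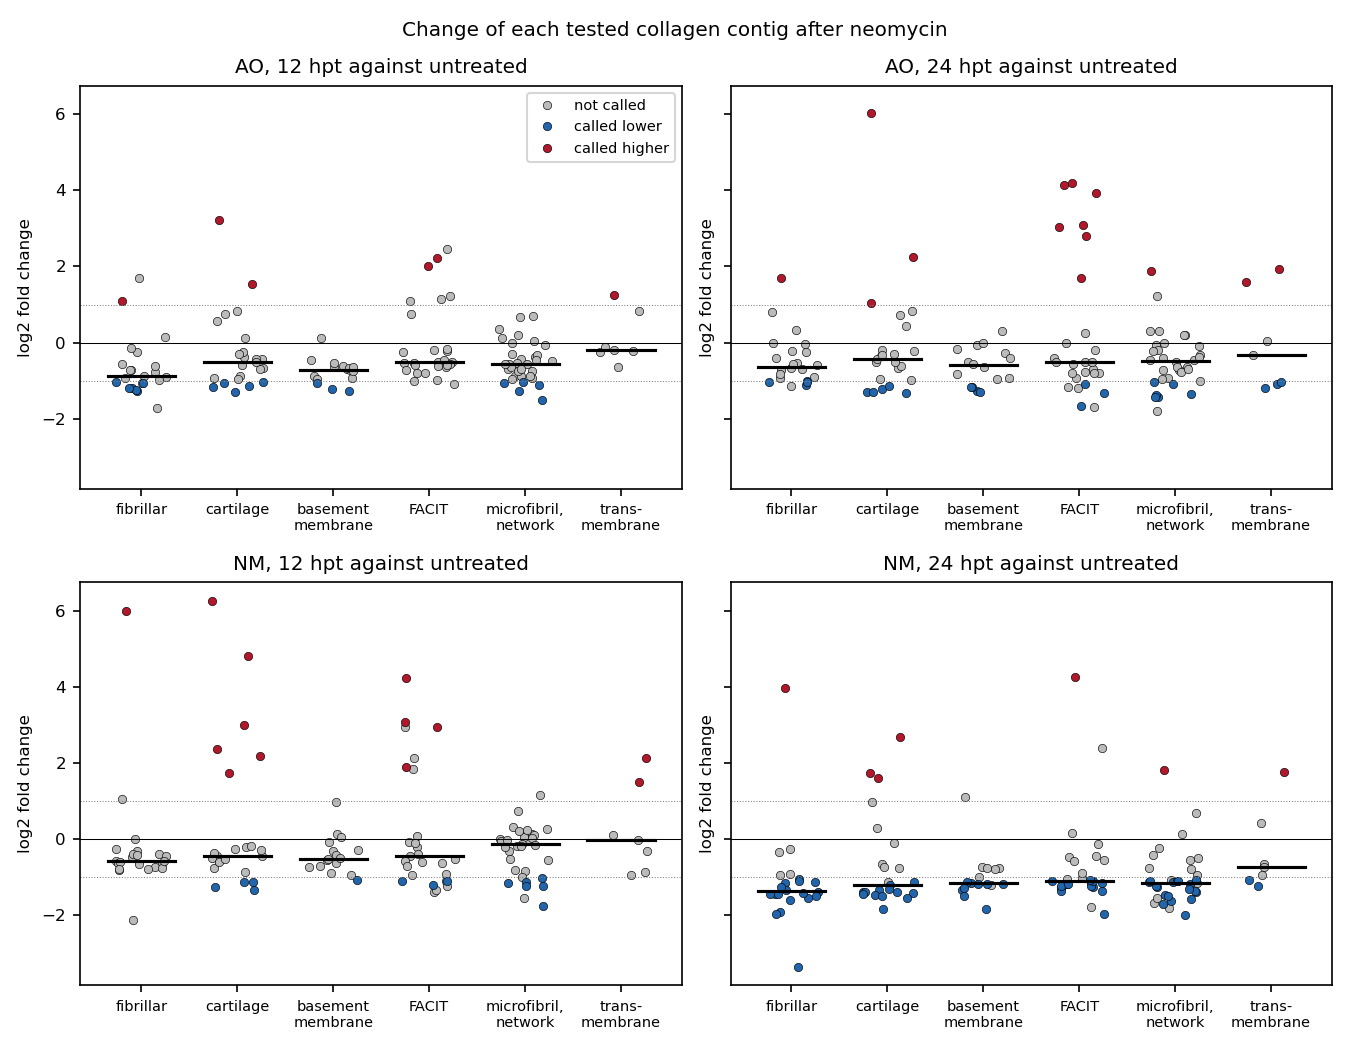
Log2 fold change (y axis) of each tested collagen contig by class (x axis) in AO and NM at 12 and 24 hpt against the untreated organ, 1 panel a comparison. Contigs called lower are blue, called higher red and the others grey, black lines are class medians, dotted lines mark 1 and -1, and contigs with a group at 0 counts are left out; in NM at 24 hpt the fibrillar median was -1.36.

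Contigs fell in NM at 24 hpt in every class. The calls took in 17 of 22 fibrillar contigs, 13 of 23 cartilage, 9 of 16 basement membrane, 13 of 29 FACIT, 18 of 34 microfibril and network and 2 of 7 transmembrane contigs. In AO at 24 hpt the same classes had 4, 5, 4, 3, 6 and 3 contigs called lower. The class medians in NM at 24 hpt lay between -1.36 for fibrillar and -0.73 for transmembrane contigs, and with the contigs that have no count in a group set at a bound of 3 counts the median of all 131 was -1.14. In NM, 25 contigs fell and 1 rose from 12 to 24 hpt, where 5.59% and 9.67% of all genes did so, but without scaling factors, which moved the median of all genes to 0.25, 10 fell and 1 rose. In AO, 2 fell and 5 rose from 12 to 24 hpt, where 1.16% and 1.64% of all genes did so, and leaving out AO at 12 hpt replicate 2 gave 3 calls in place of 7 and the quasi-likelihood fit of only these 2 groups 1.

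Type I collagen, the main collagen of skin and bone, is built from *col1a1* and *col1a2* chains, which had 7 and 6 contigs. The one with the highest CPM, a *col1a1* contig (TRINITY_DN119371_c2_g5), had 7348/8401 CPM in EP, 5881/6004 in untreated AO and 5358/6241 in untreated NM. It had 3277/3641 CPM in AO and 3511/4091 in NM at 12 hpt, and 3565/3824 and 2157/2408 at 24 hpt. All treated libraries lay below all untreated ones, and the NM libraries at 24 hpt lay below all others. Only the fall in NM at 24 hpt was called (log2 fold change -1.35, SE 0.113, edgeR FDR 4.8e-06), and the log2 fold changes in AO at 12 and 24 hpt were -0.78 and -0.69.

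The partner chain was also lowest in NM at 24 hpt. A *col1a2* contig (TRINITY_DN111530_c1_g1) had 4054/3984 CPM in untreated NM, 2312/2262 at 12 hpt and 1338/1311 at 24 hpt, a fall that was called at 24 hpt (log2 fold change -1.60, SE 0.0601, edgeR FDR 2.0e-08). In AO it had 4057/3793 CPM untreated, 2117/2063 at 12 hpt and 2417/2387 at 24 hpt, with log2 fold changes of -0.91 and -0.71 that were not called. The groups did not overlap in either organ. Type I contigs that fell in AO as well were a *col1a1* contig (TRINITY_DN115872_c1_g2), with 3597/3599 CPM in untreated AO and 1543/1464 at 12 hpt (log2 fold change -1.26, SE 0.0701, edgeR FDR 1.0e-06), and a *col1a2* contig (TRINITY_DN119484_c4_g1), with 3254/3194 and 1442/1358 CPM (log2 fold change -1.20, SE 0.0700, edgeR FDR 1.3e-06). At 24 hpt their log2 fold changes in AO were -1.11 and -1.04, both called, and the second call was lost without AO at 24 hpt replicate 2. Over all contigs of the names, 7 of 7 *col1a1* and 4 of 6 *col1a2* contigs fell in NM at 24 hpt, with log2 fold changes from -1.96 to -1.35 and from -1.90 to -0.25.

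One *col1a1* contig moved in a different way in the 2 organs. TRINITY_DN98278_c5_g5 had 862/931 CPM in EP, 286/259.6 in untreated AO and 339/352 in untreated NM. It fell in NM to 83.5/93.4 CPM at 24 hpt (log2 fold change -1.96, SE 0.0852, edgeR FDR 4.8e-08), while in AO at 24 hpt it had 273/265 CPM, which overlapped the untreated values (log2 fold change -0.02, edgeR FDR 0.85). The changes differed between the organs (difference of log2 fold changes 1.94, SE 0.117, edgeR FDR 4.9e-06). A *col1a2* contig of the same component (TRINITY_DN98278_c4_g1) had a difference of 1.66 (edgeR FDR 0.0015), and a *col2a1* contig, TRINITY_DN119371_c2_g2, one of 1.49 (edgeR FDR 7.3e-04). All 3 lie in the pair of components that hold *col1a1*, *col1a2* and *col2a1* contigs together.

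Types III and V are minor partners of type I fibrils, and type V sets fibril thickness. All 3 *col3a1* contigs fell in NM at 24 hpt, but one of them (TRINITY_DN114796_c0_g1) had less than 6 CPM in every library. The *col3a1* contig TRINITY_DN119160_c7_g3 had 257/264 CPM in untreated NM and 127/124 at 24 hpt (log2 fold change -1.05, SE 0.0608, edgeR FDR 3.2e-07), and 255/251 in untreated AO and 251/242 at 24 hpt (log2 fold change -0.04). The only *col5a2* contig (TRINITY_DN119347_c9_g2) fell from 250.5/251 to 113/111 CPM in NM (log2 fold change -1.16, SE 0.0606, edgeR FDR 1.6e-07). Its partner *col5a1* (TRINITY_DN119381_c0_g2) fell from 220.1/199.8 to 88.5/87.2 CPM in NM (log2 fold change -1.26, SE 0.0753, edgeR FDR 4.2e-07), and had 280.3/281 CPM in untreated AO and 141/128 at 12 hpt, where a call was lost without AO at 12 hpt replicate 2. A further *col5a1* contig of low level (TRINITY_DN114237_c1_g4) went the other way. It averaged 9.56 CPM in untreated AO and 20.4 at 12 hpt, and 0.298 in untreated NM and 20.5 at 12 hpt. It was the 1 fibrillar contig called higher in NM at 24 hpt (log2 fold change 3.98), a size that depends on few untreated counts. The call of the *col3a1* contig was also lost in both tests of only the groups compared.

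In cartilage, type II collagen forms the fibrils, type XI lies inside them, type IX decorates their surface, and type X belongs to hypertrophic cartilage and, in zebrafish, also to bone-forming cells. The *col2a1* contig that led its class (TRINITY_DN98278_c5_g2) had 6626/6453 CPM in EP, 4709/4372 in untreated AO and 5180/5197 in untreated NM. At 24 hpt it had 3255/3124 CPM in AO (log2 fold change -0.51, not called) and 2139/2038 in NM, where it fell (log2 fold change -1.31, SE 0.0658, edgeR FDR 1.3e-07). Of 6 *col2a1* contigs, 2 fell in NM at 24 hpt. Of 9 *col11a1* contigs, all 9 fell there, with log2 fold changes from -1.55 to -1.19, among them TRINITY_DN118161_c1_g3 with 269/273 CPM untreated and 96.7/101 at 24 hpt (log2 fold change -1.45, SE 0.0663, edgeR FDR 6.7e-08). The *col11a1* contig with the highest CPM (TRINITY_DN118526_c0_g2) also fell in AO, from 439.6/442 CPM to 185/206 at 12 hpt and 191/207 at 24 hpt (log2 fold changes -1.17 and -1.14).

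The 3 chains of type IX collagen were low in untreated NM. The *col9a1* contig (TRINITY_DN110479_c1_g2) had 3.10/3.49 CPM there, 29.1/27.5 in untreated AO and 52.3/51.8 in EP. The *col9a2* contig (TRINITY_DN117029_c4_g1) had 4.39/3.91, 22.6/23.7 and 35.9/37.1 CPM, and the tested *col9a3* contig (TRINITY_DN104036_c2_g1) 5.84/4.82, 26.1/26.2 and 52.6/50.04. Untreated AO was thus higher than untreated NM for each chain without overlap, with log2 fold changes of 3.09 (edgeR FDR 2.2e-07) for *col9a1*, 2.49 (edgeR FDR 6.5e-07) for *col9a2* and 2.30 (edgeR FDR 7.0e-07) for *col9a3*. These were 3 of 6 collagen contigs called higher in untreated AO than in untreated NM, where 5.2% of all genes were, a share close to that of the collagens. The 3 type IX calls held in the quasi-likelihood fit of only these 2 groups, which called 3 collagen contigs, and without scaling factors, which moved the median of all genes to 0.37, 11 were called. None of 131 was called lower, where 0.828% of all genes were and where 10 had an unadjusted p under 0.05, with 0 called by DESeq2 and 1 by the exact test.

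In NM the 3 chains rose at 12 hpt, to 26.7/26.7 CPM for *col9a1* (log2 fold change 3.01, SE 0.112, edgeR FDR 5.4e-08), 17.5/19.97 for *col9a2* (log2 fold change 2.18) and 27.7/27.1 for *col9a3* (log2 fold change 2.37). At 24 hpt they had 10.14/11.8, 7.92/8.36 and 16.8/15.8 CPM, of which *col9a1* and *col9a3* were still called higher than in untreated NM. In AO they had 48.0/47.2, 34.4/34.3 and 47.0/45.5 CPM at 12 hpt and 45.0/48.9, 30.0/33.1 and 48.6/44.7 at 24 hpt, above untreated AO in every library but not called at either time. The rise at 12 hpt was larger in NM than in AO, with AO minus NM differences of -2.26 (edgeR FDR 2.4e-05), -1.61 (edgeR FDR 2.3e-04) and -1.54 (edgeR FDR 1.9e-04). Among other cartilage genes, *cnmd* (chondromodulin) averaged 4.78 CPM in untreated NM, 25.1 in NM at 12 hpt and 22.4 in untreated AO, and no gene name of the cartilage list was at 0 in any group. Of its 26 tested contigs, 9 were called higher and 2 lower in NM at 12 hpt, where 11.1% and 1.32% of all genes were. In AO at 12 hpt 4 were called higher and 2 lower, where 9.84% and 2.21% of all genes were. The median log2 fold change of the list was 0.92 in NM and 0.17 in AO at 12 hpt. Its summed level ran from 473 CPM in NM at 12 hpt to 822 in untreated NM. Most of the latter sum was *sox9*, which many other tissues use and whose levels are given at the end. The part of the cartilage list in the type IX levels was not tested.

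The single *col10a1* contig (TRINITY_DN112348_c0_g1) spanned a range from 3.24 to 1087 CPM. It had 1087/1083 CPM in EP but 5.16/5.67 in untreated AO and 3.69/3.61 in untreated NM (log2 fold change -7.64, SE 0.0901, edgeR FDR 3.7e-11 for AO against EP). In AO it rose to 49.5/50.8 CPM at 12 hpt and 359.7/348 at 24 hpt (log2 fold change 6.03, SE 0.0857, edgeR FDR 1.7e-10). In NM it rose to 269/289.9 CPM at 12 hpt (log2 fold change 6.26, SE 0.0910, edgeR FDR 1.1e-10) but had 3.24/3.45 at 24 hpt, below the untreated libraries yet not called (log2 fold change -0.11, edgeR FDR 0.76). The change was smaller in AO than in NM at 12 hpt (difference of log2 fold changes -3.05, SE 0.125, edgeR FDR 2.0e-06) and larger at 24 hpt (difference of log2 fold changes 6.14, SE 0.150, edgeR FDR 1.6e-08). It was the 1 contig of 131 called lower in AO than in NM at 12 hpt, a call that the quasi-likelihood fit of only these 2 groups did not make, where 0.764% of all genes were called lower and 2.95% higher, and 0 collagens were called higher by edgeR or DESeq2 although 16 had an unadjusted p under 0.05.

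The summed level of the muscle list was high in the same groups as *col10a1*. In AO it was 682/676 CPM untreated, 9428/9248 at 12 hpt and 20469/20134 at 24 hpt. In NM it was 367/371 CPM untreated, 15861/15700 at 12 hpt and 763/768 at 24 hpt. In EP it was 49991/49779 CPM. Of its 79 tested contigs, 66 were called higher in AO at 12 hpt, 64 in NM at 12 hpt, 70 in AO at 24 hpt and 25 in NM at 24 hpt. Of all genes, 9.84%, 11.1%, 12.6% and 16.1% were called higher there. Other lists moved in part alike. Of 13 tested contigs of bone genes, 1, 6, 4 and 1 were called higher and 1, 0, 0 and 3 lower in these groups. The median log2 fold changes of the bone list there were 0.05, 1.43, 0.55 and -0.12. Its summed level was highest in untreated NM, a sum that most of its contigs did not follow. Endothelial genes summed to 430 CPM in EP, 280 in NM at 12 hpt and 239 in AO at 24 hpt. In the other groups they summed to between 126 and 185. The part of these lists in the *col10a1* levels was not tested.

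**Figure D3:**
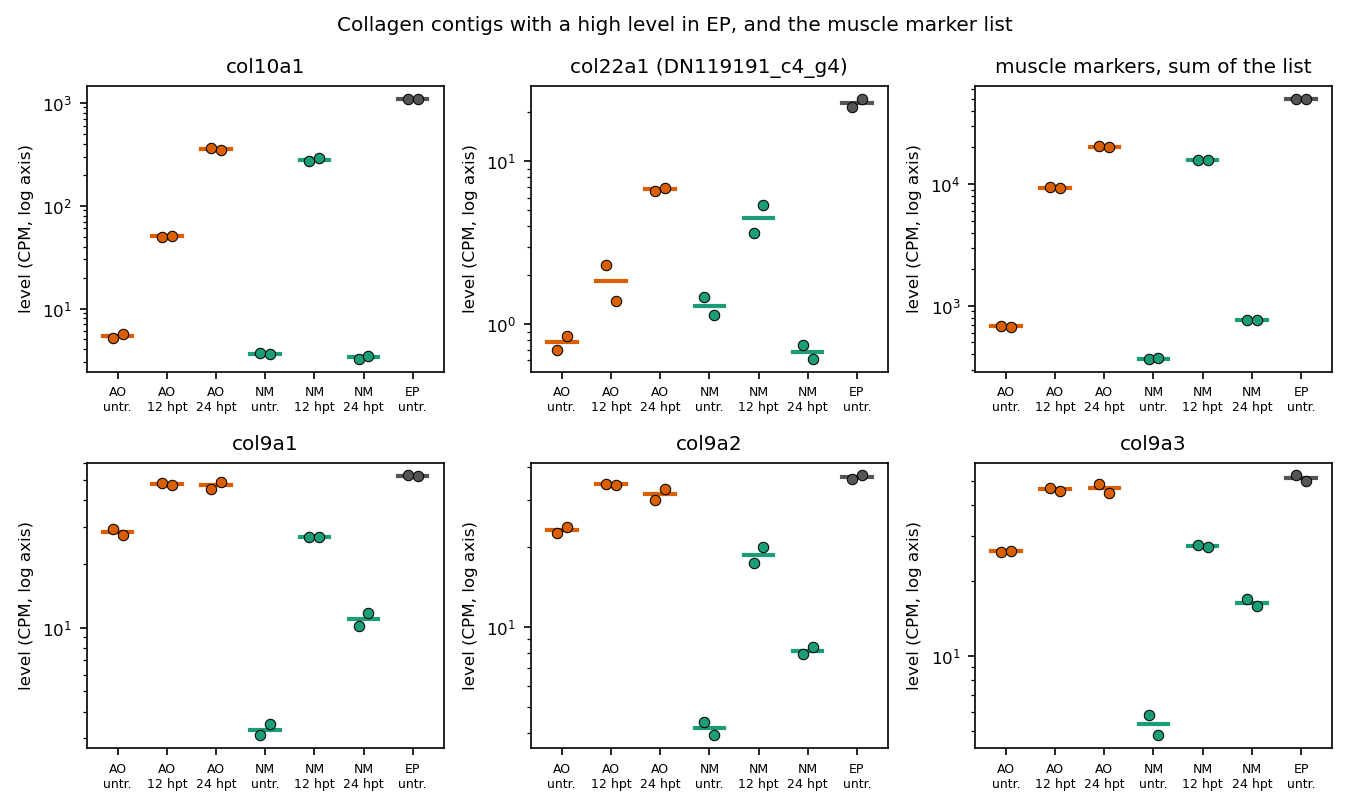
CPM on a log axis (y axis) in each library of the 7 groups (x axis) for *col10a1*, *col22a1* TRINITY_DN119191_c4_g4, the summed muscle list and the 3 type IX chains. Points are libraries; *col10a1* stood between 3.24 and 5.67 CPM in untreated AO, untreated NM and NM at 24 hpt and at 1087 and 1083 in EP.

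Some further contigs were also highest in EP and rose after neomycin. The *col27a1b* contig (TRINITY_DN119543_c6_g1), a chain of a fibrillar collagen of cartilage, had 30.2/31.2 CPM in EP, 3.86/4.77 in untreated NM and 13.2/16.01 in NM at 12 hpt (log2 fold change 1.75 against untreated NM). A *col11a2* contig (TRINITY_DN117400_c1_g3) had 55.2/63.4 CPM in EP, 4.19/4.70 in untreated AO, 11.6/14.2 at 12 hpt (log2 fold change 1.54, SE 0.204, edgeR FDR 2.5e-04) and 20/22.5 at 24 hpt. A *col22a1* contig, of a FACIT of myotendinous junctions, (TRINITY_DN119191_c4_g4) had 21.6/24.2 CPM in EP, 0.696/0.853 in untreated AO and 6.62/6.85 in AO at 24 hpt (log2 fold change 3.09, SE 0.283, edgeR FDR 1.5e-05), and 1.47/1.14 in untreated NM and 0.741/0.614 in NM at 24 hpt. Its neighbour TRINITY_DN119191_c4_g3 had 16.5/13.3 CPM in EP, 0.273/0.169 in untreated AO, 1.15/0.978 in AO at 12 hpt and 4.72/4.46 in AO at 24 hpt (log2 fold change 4.14, SE 0.353, edgeR FDR 9.2e-06). Its rise from 12 to 24 hpt (log2 fold change 2.13, edgeR FDR 8.5e-04) was not called without AO at 12 hpt replicate 2. Of 6 *col22a1* contigs, 4 were called lower than EP in each untreated organ, 4 were called higher in AO at 24 hpt, 1 in AO at 12 hpt, 3 in NM at 12 hpt and 0 in NM at 24 hpt. The muscle list given above was likewise highest in EP and higher than untreated in both organs at 12 hpt and in AO at 24 hpt. It was also higher in NM at 24 hpt, at 765 CPM against 369 in untreated NM, where 0 *col22a1* contigs were called higher. In AO *col27a1b* averaged 7.97 CPM untreated and 8.73 at 12 hpt, where the muscle list went from 679 to 9338. At 24 hpt in AO, where the list was at 20301 CPM, *col27a1b* was called higher than untreated. The part of the muscle list in these contigs was not tested.

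Against EP, collagen contigs were called in both directions. In untreated AO, 15 of 131 were called higher and 18 lower, where 7.46% and 6.81% of all genes were. In untreated NM, 16 were called higher and 31 lower, where 4.06% and 9.19% of all genes were. Both comparisons share the EP libraries. Without scaling factors the median of all genes in AO against EP moved from 0.09 to 0.43, and 22 contigs were called higher and 16 lower. No fibrillar contig was called higher than EP in either organ or was higher at an unadjusted p under 0.05, and 4 were called lower in AO and 3 in NM. In the microfibril and network class 6 contigs were called higher and 1 lower in AO, and 6 higher and 10 lower in NM.

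Contigs of one name did not all lie on the same side of EP in the untreated organs, as seen for types XI, XIV, XXVIII and VI. The *col11a1* contig TRINITY_DN114608_c1_g4 had 48.6/43.1 CPM in EP, 131/130.4 in untreated AO (log2 fold change 1.51, SE 0.102, edgeR FDR 1.9e-06) and 166/155 in untreated NM (log2 fold change 1.8, edgeR FDR 5.0e-07), while TRINITY_DN118161_c1_g3 of the same name had 346/356, 332/301 and 269/273 CPM. Of the 9 *col11a1* contigs, 3 were called higher than EP in AO and 3 in NM. A *col11a2* contig of the same component (TRINITY_DN114608_c1_g2) had 53.0/53.4 CPM in EP, 128/139 in untreated AO (log2 fold change 1.33, SE 0.0832, edgeR FDR 1.1e-06) and 146/162 in untreated NM, and it fell in NM to 59.7/62.4 at 12 hpt (log2 fold change -1.33, SE 0.0827, edgeR FDR 1.8e-06) and 59.7/56.9 at 24 hpt. After neomycin all 4 NM libraries lay above both EP libraries.

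Type XXVIII collagen has von Willebrand factor A domains like type VI and is known in mouse from peripheral nerve. The *col28a1* contig TRINITY_DN119918_c7_g1 had 32.6/34.7 CPM in EP, 89.1/89.9 in untreated AO (log2 fold change 1.41, SE 0.0702, edgeR FDR 2.0e-07) and 106/106 in untreated NM (log2 fold change 1.66, SE 0.0705, edgeR FDR 5.8e-08). It fell to 32.3/33.7 CPM in AO (log2 fold change -1.44, SE 0.0693, edgeR FDR 2.3e-07) and 39.1/42.9 in NM at 24 hpt. A further *col28a1* contig (TRINITY_DN111262_c0_g2) had 45.0/43.7 CPM in EP, 135/149 in untreated NM and 55.8/66.2 at 12 hpt (log2 fold change -1.22, SE 0.0987, edgeR FDR 1.1e-05). Of 4 *col28a1* contigs, 2 were called higher than EP in each organ. Schwann cell genes (13 contigs, of which 9 were called higher than EP in AO and 8 in NM) summed to 659 CPM in EP, 1178 in untreated AO and 1702 in untreated NM, to 1014 and 785 at 12 hpt in AO and NM, and to 1476 and 1276 at 24 hpt. Of all genes, 7.46% were called higher than EP in AO and 4.06% in NM. At 12 hpt 3 of the 13 were called lower and 1 higher in AO, and 5 lower and 1 higher in NM. Of all genes, 2.21% and 9.84% were so called in AO and 1.32% and 11.1% in NM. At 24 hpt 3 of the 13 were called lower and 2 higher in each organ, where 3.47% and 12.6% of all genes were in AO and 5.01% and 16.1% in NM. The part of Schwann cell genes in the *col28a1* levels was not tested.

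**Figure D4:**
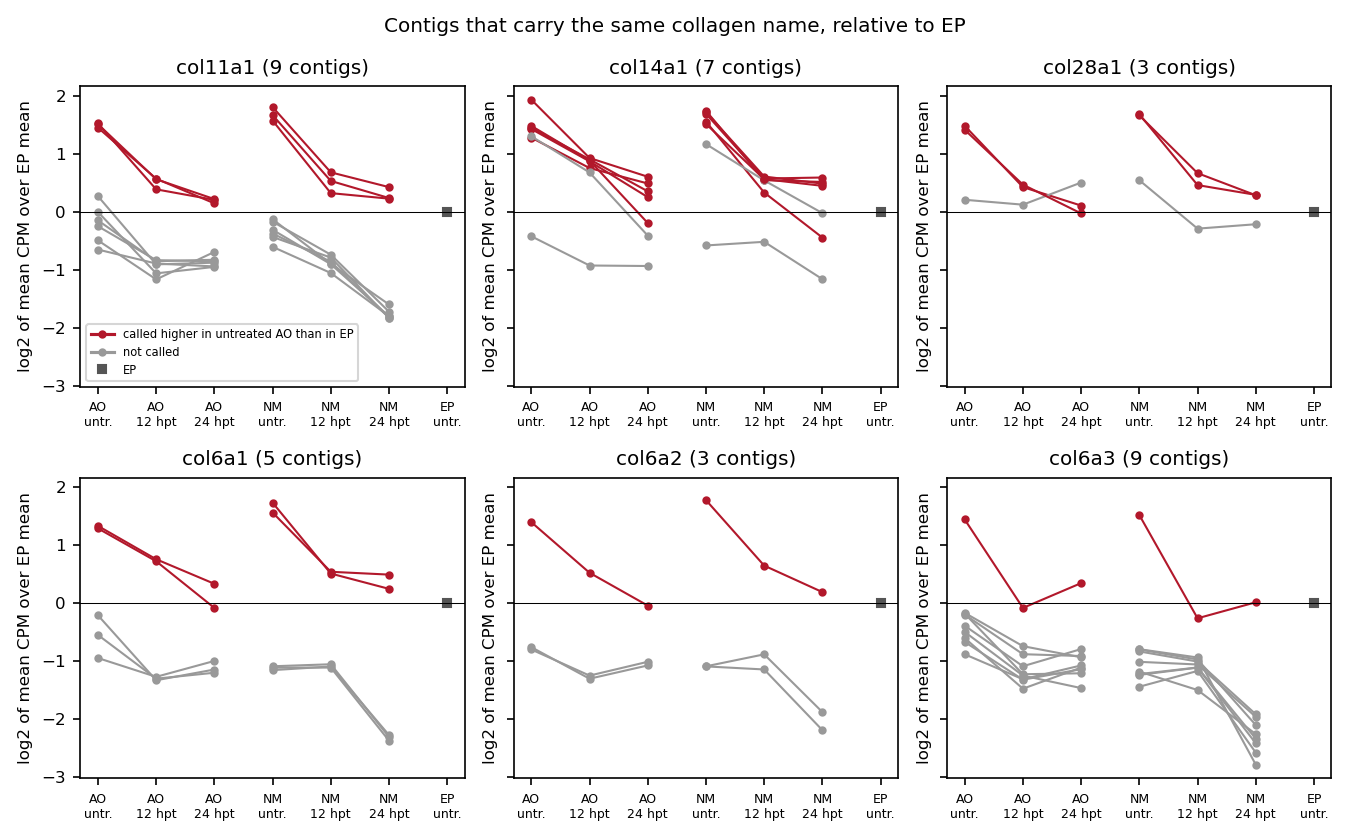
Log2 of the group mean CPM over the EP mean (y axis) in the 7 groups (x axis) for contigs with a mean of at least 5 CPM of 6 names that several contigs carry, 1 panel a name and 1 line a contig. Red lines are the 14 of 36 contigs called higher in untreated AO than in EP and grey lines the others. Red and grey lines alike lie lower at 24 hpt than in the untreated organ, except *col28a1* TRINITY_DN116082_c4_g1 in AO. The fall of the red lines in AO starts from the libraries used to choose them.

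FACITs of types XII and XIV bind fibrils in skin and tendon. The leading *col12a1* contig (TRINITY_DN119274_c8_g1) had 212/209 CPM in EP, 164/164 in untreated NM and 74.2/73.9 at 24 hpt (log2 fold change -1.15, SE 0.0584, edgeR FDR 1.4e-07), and in AO 198/187 untreated and 132/129 at 24 hpt (log2 fold change -0.56). The leading *col14a1* contig (TRINITY_DN119503_c9_g2) was higher in the organs, with 43.8/56.7 CPM in EP, 124/119 in untreated AO (log2 fold change 1.28, edgeR FDR 0.0045) and 150/180.2 in untreated NM (log2 fold change 1.72, edgeR FDR 8.4e-04), but its replicates lay far apart. The call in AO was lost without either AO or either EP library, and that in NM without EP replicate 1. The *col14a1* contig TRINITY_DN76497_c0_g1 had 15.01/14.6 CPM in EP and 44.2/38.2 in untreated AO (log2 fold change 1.48, edgeR FDR 4.5e-05), and fell in AO to 13.6/12.2 at 24 hpt (log2 fold change -1.68, SE 0.155, edgeR FDR 1.6e-05). Of 8 *col14a1* contigs, 5 were called higher than EP in each organ and 5 fell in NM at 24 hpt.

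Also in this class, *col16a1* (TRINITY_DN116149_c2_g2), of a FACIT of skin and cartilage, had 92.4/102 CPM in untreated NM and 45.7/40.5 at 24 hpt (log2 fold change -1.17, SE 0.0789, edgeR FDR 9.5e-07). In AO it had 108/113 untreated and 66.8/69.8 at 24 hpt, and EP, at 111/116, overlapped untreated AO. Both contigs of this name fell in NM at 24 hpt, and 3 of 6 *col21a1* contigs did. *col19a1* contigs had few counts, and the larger (TRINITY_DN106748_c0_g1) had 0.188/0.188 CPM in untreated AO, 2.84/3.48 at 24 hpt and 4.77/3.76 in EP. For 3 contigs there was no count in both libraries of at least 1 group: a *col6a5* (TRINITY_DN62665_c0_g1) and a pair of *col22a1* (TRINITY_DN69328_c0_g1 and TRINITY_DN72606_c0_g1), and no fold change is given for them.

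Type IV collagen is the scaffold of basement membranes, and *col4a1* and *col4a2* form its common trimer. The *col4a1* contig TRINITY_DN115416_c2_g2 had 90.7/88.2 CPM in EP, 151/134 in untreated AO and 151/149 in untreated NM, with log2 fold changes against EP of 0.67 and 0.75 that were not called. It fell to 61.2/56.8 CPM in AO (log2 fold change -1.27, SE 0.0772, edgeR FDR 9.1e-07) and 70.7/64.9 in NM (log2 fold change -1.15, SE 0.0771, edgeR FDR 9.3e-07) at 24 hpt, below EP in both organs. A *col4a6* contig (TRINITY_DN119761_c5_g1) likewise fell, from 99.6/96.6 to 41.0/38.8 CPM in AO (log2 fold change -1.30, SE 0.0635, edgeR FDR 2.5e-07) and from 95.5/99.3 to 44.9/44.9 in NM. For these 2 contigs the changes at 24 hpt had AO minus NM differences of -0.13 (edgeR FDR 0.45) and -0.18 (edgeR FDR 0.17).

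The *col4a1* contig next to *col4a2* in its component (TRINITY_DN119959_c10_g1) did not show this. It had 86.7/99.6 CPM in EP, 76.4/69.1 in untreated AO, 50.5/52.3 in AO and 25.5/23.3 in NM at 24 hpt, and was called lower in NM alone at that time. Its partner *col4a2* (TRINITY_DN119959_c11_g1) had 49.0/52.8 CPM in untreated NM and 22.7/22.5 at 24 hpt (log2 fold change -1.17, edgeR FDR 6.4e-07), and 53.9/51.1 and 42.5/44.6 in AO (log2 fold change -0.27). The contig of the class with the highest CPM, *col4a5* (TRINITY_DN117348_c1_g1), had 171/172 CPM in untreated NM and 86.4/86.5 at 24 hpt, just short of a call (log2 fold change -0.99, SE 0.0845, edgeR FDR 5.4e-06). No basement membrane contig of the 16 tested was called against EP in untreated AO, where 5 were higher and 5 lower at an unadjusted p under 0.05, and 1 was called lower in untreated NM.

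Type XVIII collagen carries heparan sulphate chains and is the source of endostatin. Its contig TRINITY_DN118479_c2_g1, in a component with *col23a1*, had 169/165 CPM in untreated AO, 71.4/68.0 at 12 hpt (log2 fold change -1.26, SE 0.0783, edgeR FDR 1.9e-06) and 75.7/71.8 at 24 hpt. In NM it had 149.6/155, 86.2/78.8 and 71.0/63.3 CPM, and EP had 99.9/95.9, so that treated organs lay below EP and untreated organs above it. In AO at 12 hpt, 3 of 4 *col18a1* contigs fell, and they were the only basement membrane contigs to do so. The 3 *col15a1* contigs, of the related type XV, had log2 fold changes between -0.80 and -0.74 in NM at 24 hpt and were not called.

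Type VI collagen is a trimer of *col6a1*, *col6a2* and a long chain such as *col6a3*, and its microfibrils surround cells in most connective tissue, including muscle. The leading *col6a1* contig (TRINITY_DN113242_c3_g1) had 702/682 CPM in EP, 379/341 in untreated AO and 316/307 in untreated NM. In NM it had 335/316 CPM at 12 hpt, which overlapped the untreated values (log2 fold change 0.06), and fell to 145/142 at 24 hpt (log2 fold change -1.12, SE 0.0822, edgeR FDR 1.8e-06). In AO it had 279/296 CPM at 12 hpt and 369/326 at 24 hpt. The leading *col6a2* contig (TRINITY_DN118599_c1_g1) had 294/306, 285/293 and 139.9/141 CPM in NM (log2 fold change -1.10, SE 0.0625, edgeR FDR 2.9e-07 at 24 hpt), and the leading *col6a3* contig (TRINITY_DN114879_c0_g3) 153/164, 167/179 and 64.6/75.8. All 3 chains were thus near the untreated level at 12 hpt and lower at 24 hpt. A further *col6a1* contig (TRINITY_DN117122_c4_g1) had the smallest FDR among collagens that fell between 12 and 24 hpt in NM after *col10a1*, from 148/139 to 59.8/60.1 CPM (log2 fold change -1.26, SE 0.0617, edgeR FDR 2.9e-07), a call lost without scaling factors.

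Against EP these 4 contigs were called lower in untreated NM, with log2 fold changes of -1.15, -1.09, -1.23 and -1.11. Other type VI contigs of the same names ran the other way. A *col6a3* contig (TRINITY_DN118523_c3_g1) had 3.88/3.10 CPM in EP, 9.37/9.60 in untreated AO and 9.93/10.07 in untreated NM, and fell in NM to 2.99/2.84 at 12 hpt (log2 fold change -1.77, SE 0.138, edgeR FDR 8.1e-06). A *col6a2* contig (TRINITY_DN104815_c1_g1) had 13.2/14.0 CPM in EP, 37.3/34.3 in untreated AO (log2 fold change 1.40) and 44.4/48.9 in untreated NM (log2 fold change 1.78). By name, 2 of 5 *col6a1*, 1 of 4 *col6a2* and 1 of 13 tested *col6a3* contigs were called higher than EP in each organ, and 3, 2 and 4 were called lower in NM. In NM at 24 hpt, 5 *col6a1*, 2 *col6a2* and 7 *col6a3* contigs fell.

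Type VIII collagen, a short-chain network of blood vessels and the cornea, had chains that moved in opposite directions. *col8a1* (TRINITY_DN114816_c1_g1) rose in AO from 2.69/2.51 CPM to 9.24/9.82 at 24 hpt (log2 fold change 1.88, SE 0.139, edgeR FDR 3.3e-06) and in NM from 1.42/1.56 to 5.68/4.77 (log2 fold change 1.81, SE 0.168, edgeR FDR 9.6e-06). It was the 1 collagen contig that rose in NM from 12 to 24 hpt (log2 fold change 1.06, edgeR FDR 4.2e-04), a call lost without NM at 12 hpt replicate 2 or NM at 24 hpt replicate 1, and with DESeq2. The *col8a2* contigs fell in NM at 24 hpt, for example TRINITY_DN112271_c3_g1 from 27.9/26.2 to 8.74/8.62 CPM (log2 fold change -1.64, SE 0.0884, edgeR FDR 2.1e-07). EP had 7.90/7.50 CPM of *col8a1* and 30.9/31.1 of this *col8a2* contig. Endothelial genes (32 contigs) summed to 158 CPM in untreated AO and 239 at 24 hpt, to 126 and 130 in NM, and to 430 in EP. At 24 hpt 5 of 32 were called higher in AO and 2 in NM, where 12.6% and 16.1% of all genes were, and 0 were called lower. The share in AO was thus near that of all genes and the share in NM below it. The part of endothelial genes in these levels was not tested.

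Among transmembrane collagens, *col17a1* of the hemidesmosome had the highest CPM. TRINITY_DN112409_c1_g2 had 154/151 CPM in EP, 259/255 in untreated AO (log2 fold change 0.75, not called) and 319.7/322 in untreated NM (log2 fold change 1.07, SE 0.0608, edgeR FDR 4.8e-07). In AO it had 216/222 CPM at 12 hpt (log2 fold change -0.23) and fell to 121/121 at 24 hpt (log2 fold change -1.09, SE 0.0608, edgeR FDR 5.7e-07). In NM it had 162/172 CPM at 12 hpt (log2 fold change -0.94, not called) and 139/133 at 24 hpt, where it fell (log2 fold change -1.24, SE 0.0609, edgeR FDR 1.1e-07). The AO minus NM difference at 12 hpt was 0.71 (edgeR FDR 0.0012), below the size needed for a call. All 3 *col17a1* contigs fell in AO and 2 in NM at 24 hpt. TRINITY_DN118987_c9_g1 had 242/231 CPM in untreated AO and 113/119 at 24 hpt (log2 fold change -1.03), a call lost without untreated AO replicate 1 and with DESeq2 or its size factors. TRINITY_DN86449_c0_g3 had 61.6/55.1, 51.9/55.5 and 25.1/26.3 CPM in AO, a fall after 12 hpt (log2 fold change -1.06, SE 0.0901, edgeR FDR 6.1e-05) that was not called in the quasi-likelihood fit of only the groups compared. The keratinocyte list summed to 21577 CPM in untreated AO and 17071 at 24 hpt, with 7 of 43 tested contigs called lower and 3 higher. Of all genes, 3.47% were called lower and 12.6% higher there. In NM the list summed to 26865 CPM untreated and 13714 at 24 hpt, with 14 called lower and 1 higher, where 5.01% and 16.1% of all genes were. The part of keratinocyte genes in the *col17a1* levels was not tested.

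The *col25a1* contig (TRINITY_DN116697_c1_g1), of a collagen that in mouse muscle takes part in innervation, rose in every treated group. It had 1.82/2.43 CPM in untreated AO, 5.46/4.72 at 12 hpt (log2 fold change 1.26, SE 0.200, edgeR FDR 8.0e-04) and 6.28/6.53 at 24 hpt. In NM it had 1.34/1.35, 3.43/4.15 and 4.79/4.47 CPM, and in EP 6.65/8.57. Treated and untreated libraries did not overlap in either organ. The calls at 12 hpt in both organs were lost with DESeq2 and in the quasi-likelihood fit of only the groups compared, and that in NM also without untreated NM replicate 2 or NM at 12 hpt replicate 2. Neuronal genes (25 contigs) summed in AO to 428 CPM untreated, 1053 at 12 hpt and 1559 at 24 hpt, and in NM to 152, 562 and 1925, against 224 in EP. In each treated group 18 to 22 of 24 tested contigs were called higher, where 9.84% to 16.1% of all genes were. In NM at 24 hpt 1 was called lower, where 5.01% of all genes were. The part of neuronal genes in the *col25a1* levels was not tested.

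At 24 hpt the organs differed. Of 131 contigs, 33 were called higher in AO than in NM, where 3.11% of all genes were, and 0 were called lower by edgeR or DESeq2, where 0.378% of all genes were and 6 had an unadjusted p under 0.05. They were 5 fibrillar, 9 cartilage, 2 basement membrane, 6 FACIT, 10 microfibril and network and 1 transmembrane contig. The median log2 fold change was 0.80, against -0.00 over all genes, and 98 contigs had both AO libraries above both NM libraries, where 25.4% of all genes did. In the untreated organs that median was 0.13 for collagens and for all genes alike. In NM at 24 hpt 16 of 18 lens contigs were called higher than in untreated NM and 0 lower. Of 15 tested dermal fibroblast contigs, 9 were called lower and 1 higher there, where 5.01% and 16.1% of all genes were. In AO at 24 hpt 12 lens contigs were called lower and 1 higher, and 3 fibroblast contigs lower and 1 higher. Of all genes, 3.47% and 12.6% were so called. The fibroblast list summed to 1458 CPM in untreated NM and 641 at 24 hpt, and to 1494 in untreated AO and 1055 at 24 hpt. The part of the 2 lists in the collagen levels was not tested. The change from untreated to 24 hpt itself differed for 12 contigs, all with a higher value in AO, where 2.07% of all genes differed that way and 5.61% the other way, and 5 contigs had a lower value in AO at an unadjusted p under 0.05. DESeq2 called 11 in the first direction and 1 in the other. Without AO at 24 hpt replicate 1 the count was 7, and without scaling factors 6 differed that way and 4 the other way. The median difference was 0.50 for collagens and -0.08 for all genes. At 12 hpt 8 contigs differed, all with a lower value in AO, where 1.39% of all genes differed that way and 0.405% the other way, and 6 contigs had a higher value in AO at an unadjusted p under 0.05. The quasi-likelihood fit of only the 4 groups called 4 of these 8.

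**Figure D5:**
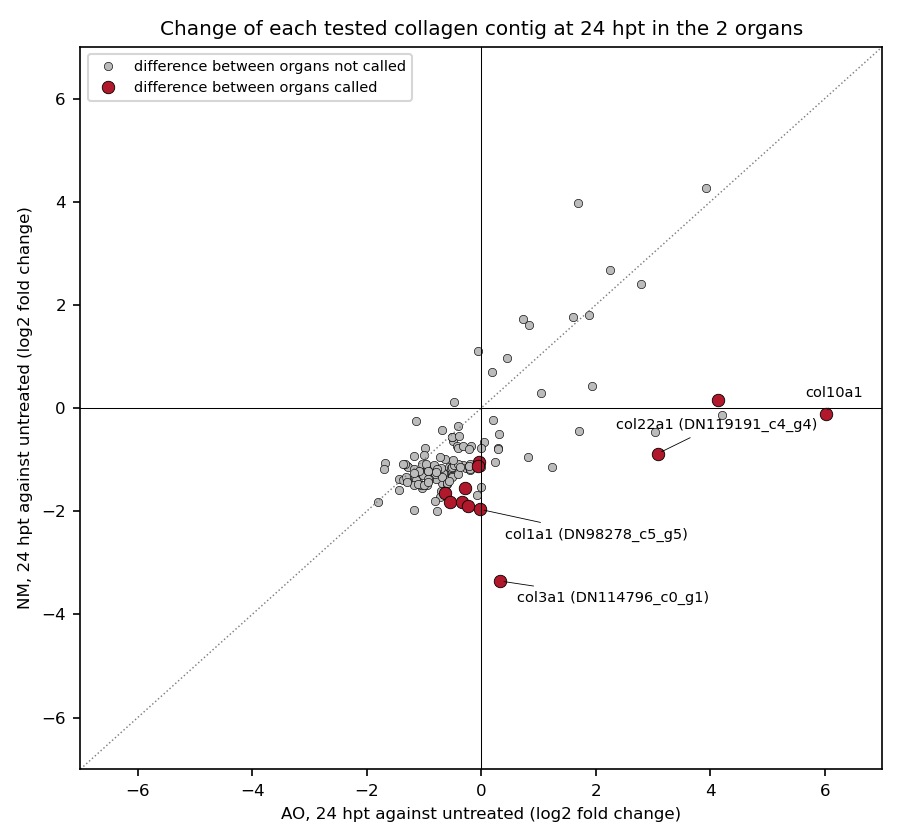
Log2 fold change from untreated to 24 hpt of each tested collagen contig in AO (x axis) and NM (y axis), leaving out 3 contigs with a group at 0 counts. Red points are contigs whose change differed between the organs and the dotted line marks equal change; *col10a1*, at 6.03 in AO and -0.11 in NM, lies farthest below it.

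Genes that make, bind or sense collagen were taken from fixed lists. Of all genes, 2.21% were called lower and 9.84% higher in AO at 12 hpt, 1.32% and 11.1% in NM at 12 hpt, 3.47% and 12.6% in AO at 24 hpt, and 5.01% and 16.1% in NM at 24 hpt. Of 54 tested contigs of collagen processing, such as prolyl hydroxylases, propeptide proteinases and the chaperone *serpinh1*, 15 were called lower and 4 higher in AO at 12 hpt, 9 and 6 in NM at 12 hpt, 4 and 6 in AO at 24 hpt, and 11 and 2 in NM at 24 hpt. Their median log2 fold changes were -0.74, -0.39, -0.17 and -0.68. *serpinh1*, the collagen-specific chaperone, averaged 979 CPM over its summed contigs in AO without treatment, 231 at 12 hpt and 1201 at 24 hpt, and in NM 1195, 379 and 738. Of 36 tested contigs of proteins that bind fibrils, 17 were called lower and 1 higher in NM at 24 hpt and 2 lower and 6 higher in AO at 24 hpt. At 12 hpt 3 of the 36 were called lower and 1 higher in AO, and 2 lower and 2 higher in NM. The matricellular protein *postn*, of the same list, averaged in AO 3200 CPM untreated, 998 at 12 hpt and 847 at 24 hpt, and in NM 3643, 1064 and 761. Of 20 tested contigs of collagen receptors, 8 were called lower and 0 higher than EP in each untreated organ, where 6.81% of all genes were lower in AO and 9.19% in NM. After neomycin 0 were called lower and 1 higher in AO at 12 hpt, and 0 and 2 in NM at 12 hpt. At 24 hpt 1 was called lower and 2 higher in AO, and 4 lower and 0 higher in NM.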

How the data were processed

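RNA-Seq counts were analysed for 14 libraries in 7 groups of 2. Per the labels and the study's methods, reads were trimmed with Trimmomatic 0.38, assembled de novo with Trinity, and quantified per gene with RSEM, and the submitters' processing notes also name CASAVA 1.8.2. The expected counts deposited by the authors are not normalized, and they were rounded to whole numbers. Names came from the authors' annotation, which gives none for 801 of the 23448 genes, and 2 genes had no count. Libraries held 7121038 to 10067958 counts, and the common biological coefficient of variation was 0.121. All columns of the table were used.

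One edgeR 4.0.16 quasi-likelihood model (R 4.3.3, limma 3.58.1) with a term for each group was fitted to the 21978 genes kept by filterByExpr, with TMM scaling. It gave 13 comparisons, among them the AO minus NM difference in the change after neomycin. A contig was called where its log2 fold change was larger than 1 in size and its FDR after Benjamini-Hochberg adjustment lay below 0.01. An exact permutation of 2 against 2 libraries cannot go below a two-sided p of 0.333, so none was used. The members and the gene lists were chosen with earlier results of these data known. Contigs were named by a rule: in each class the 3 with the highest mean CPM, in each comparison up to 3 called contigs with the smallest FDR in each direction, their copies by counts and range, and partner chains of a trimer. Named outside the rule, after their values were seen, were *col27a1b*, *col22a1* TRINITY_DN119191_c4_g4 and *col6a2* TRINITY_DN104815_c1_g1. The same holds for the low-count contigs of *col19a1*, *col6a5* and *col22a1* and the contigs given only for a differing response of the organs. The rule as given here does not cover the single list genes *cnmd*, *matn1*, *sox9*, *serpinh1* and *postn*, so they are examples and do not stand for their lists.

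The alternatives were the replicate number as a block, DESeq2 1.42.0, its size factors (RLE), no filter, an FDR of 0.05, a quasi-likelihood fit and an exact test of only the groups compared, and each library left out. A fit without scaling factors and the fit of only the 4 groups of an organ difference were chosen after seeing the data. The model was tested on simulated data. In these, genes not chosen for a change had the same mean level in all groups, and counts were drawn with the spread fitted here. Changes were put only into the NM libraries at 24 hpt, in both directions. The test therefore could not show false calls from a shift of many genes between groups or from differences between pools of larvae. For NM at 24 hpt against untreated NM it recovered 62 of 89 genes changed by 1.5 and 84 of 111 changed by 2 on the log2 scale, with 0 false calls among 21612 genes, and for the organ difference at 24 hpt 51 of 108 and 60 of 92, with 0 among 21584.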

Additional observations from a re-analysis of the deposited data

Results flagged for a closer look

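The change from untreated to treated differed between AO and NM for 8 collagen contigs at 12 hpt and 12 at 24 hpt, tested as the AO minus NM difference of log2 fold changes with edgeR's quasi-likelihood test and Benjamini-Hochberg adjustment. At 12 hpt the difference was -3.05 for *col10a1*, -2.26 for *col9a1*, -1.61 for *col9a2*, -1.54 for *col9a3* and -1.62 for *col27a1b*. It was -1.14 for the *col6a3* contig TRINITY_DN108005_c0_g4, which had 123/109 CPM in untreated AO and 67.3/59.5 at 12 hpt, and 63.0/66.8 in untreated NM and 80.1/76.5 at 12 hpt. For the *col11a2* contig TRINITY_DN117400_c1_g3 it was -3.27, with 0.202/0.551 CPM in untreated NM and 9.53/11.6 at 12 hpt. For the *col5a1* contig TRINITY_DN114237_c1_g4 it was -4.91, but that contig had 0/0.596 CPM in untreated NM, so the size of the value depends on few counts.

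At 24 hpt the difference was 6.14 for *col10a1*, 1.94 for *col1a1* TRINITY_DN98278_c5_g5, 1.66 for *col1a2* TRINITY_DN98278_c4_g1 and 1.49 for *col2a1* TRINITY_DN119371_c2_g2. It was 1.01 for *col3a1* TRINITY_DN119160_c7_g3, 1.07 for *col6a1* TRINITY_DN113242_c3_g1, 1.01 for *col8a2* TRINITY_DN112271_c3_g1, 1.28 for *col4a6* TRINITY_DN75284_c0_g1 and 1.26 for *col11a1* TRINITY_DN118161_c1_g2. For 2 *col22a1* contigs, TRINITY_DN119191_c4_g4 and TRINITY_DN119191_c4_g3, it was 3.97 and 3.99, and for the *col3a1* contig TRINITY_DN114796_c0_g1, with 0.406/0.194 CPM in NM at 24 hpt, it was 3.68. Leaving out AO at 24 hpt replicate 1 ended the calls of the *col3a1* contig TRINITY_DN119160_c7_g3 and of the *col6a1*, *col8a2*, *col4a6* and *col11a1* contigs, as did dropping the scaling factors, and without that library 7 contigs were called in all. The calls of *col22a1* TRINITY_DN119191_c4_g3, *col3a1* TRINITY_DN114796_c0_g1 and, at 12 hpt, *col11a2* TRINITY_DN117400_c1_g3 were lost without single libraries of the groups compared. In the quasi-likelihood fit of only the 4 groups those 3 calls, that of *col4a6* and, at 12 hpt, those of *col27a1b*, *col6a3* and *col5a1* were lost, so that 4 contigs of the 8 remained at 12 hpt and 9 of the 12 at 24 hpt. The summed muscle list, which is 15780 CPM in NM and 9338 in AO at 12 hpt and 765 in NM and 20301 in AO at 24 hpt, lies higher in NM at 12 hpt and in AO at 24 hpt, and its part in these differences was not tested.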

How the results depend on the processing

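The 343 calls of single collagen contigs kept their direction in all 7520 pairs of a call and an alternative in which it could be tested. They also kept their call in 7043, and 477 fell short of it. These were 278 of 4802 with 1 library left out, 86 without scaling factors and 67 of 340 in the quasi-likelihood fit of only the groups compared. A further 29 were lost with DESeq2, 7 with RLE, 7 of 320 in the exact test, 2 without the filter and 1 with the replicate block. The 7520 overstate the number of independent checks. An FDR of 0.05 was applied to the same fit, so none of its 343 pairs could lose a call. In most of the 4802 pairs the library left out was not in the comparison. In AO against NM at 12 hpt, where 1 contig was called, 4 were called at an FDR of 0.05, 2 each with RLE, the exact test and no scaling factors, and 0 in the fit of only the groups compared. That fit called 3 in untreated AO against untreated NM instead of 6, 15 in NM at 12 hpt instead of 27, 1 in AO from 12 to 24 hpt instead of 7 and, in a fit of the 4 groups chosen after seeing the data, 4 organ differences at 12 hpt instead of 8. Without scaling factors, chosen after seeing the data, the counts were 11 in untreated AO against untreated NM, 36 in NM at 24 hpt and 11 in NM from 12 to 24 hpt instead of 26. By the labels, same-numbered libraries share only a number, yet in part they deviated alike. Their deviations correlated with r from 0.197 to 0.307 over 21 pairs of groups, and with the replicate block AO against NM at 12 hpt had 2 calls, while no other count moved by more than 1.5 times. The exact test was not run for the organ differences.

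With 1 library left out, the counts were 27 to 34 for untreated AO against EP, 43 to 47 for untreated NM against EP, 6 to 8 for untreated AO against untreated NM, 21 to 28 for AO and 20 to 28 for NM at 12 hpt, 34 to 41 for AO and 73 to 79 for NM at 24 hpt, 3 to 8 for AO and 24 to 26 for NM from 12 to 24 hpt, 1 to 2 and 25 to 32 for AO against NM at 12 and 24 hpt, and 7 to 9 and 7 to 13 for the organ differences at 12 and 24 hpt. The count of 2 at 12 hpt came without either NM library at 12 hpt. The lone library of a group was then assumed to vary like the other groups.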

Other observations

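Basement membrane partners, such as laminins, nidogens and perlecan, were measured by 137 contigs. Of them, 19 were called higher and 11 lower in untreated AO than in EP, and 12 higher and 27 lower in untreated NM than in EP, where 7.46% and 6.81% of all genes were called in AO and 4.06% and 9.19% in NM. In AO 15 fell and 2 rose at 12 hpt, where 2.21% and 9.84% of all genes did, and 27 fell and 3 rose at 24 hpt, where 3.47% and 12.6% did. In NM 7 fell and 4 rose at 12 hpt, where 1.32% and 11.1% of all genes did, and 33 fell and 12 rose at 24 hpt, where 5.01% and 16.1% did. Their summed level was 3740 CPM in untreated AO, 2403 in AO at 24 hpt, 3304 in untreated NM and 2206 in NM at 24 hpt.

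Bone genes (16 contigs) summed to 6695 CPM in untreated NM and 2480 in NM at 24 hpt, and to 5501 in untreated AO and 3761 in AO at 24 hpt. Most contigs did not follow these sums. Of 13 tested, 1 was called higher and 3 lower in NM at 24 hpt, where 16.1% and 5.01% of all genes were. In AO at 24 hpt 4 were called higher and 0 lower, where 12.6% and 3.47% of all genes were. The median log2 fold changes of the list were -0.12 in NM and 0.55 in AO. The cartilage gene *matn1* (matrilin) averaged 42.4 CPM in EP, 0.61 in untreated AO, 7.86 and 10.7 in AO at 12 and 24 hpt, and 0.35, 6.12 and 0.49 in NM untreated and at 12 and 24 hpt, while *sox9*, a cartilage transcription factor that many other tissues use, averaged 194 CPM in EP, 338, 129 and 311 in AO and 587, 123 and 350 in NM.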
